A study of Homo sapiens with 18 samples.

Results

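The genes described here are 10 members of the NF-kappa-B system, namely the transcription factor genes NFKB1, NFKB2, RELA, RELB and REL, and the genes of proteins that restrain the pathway or transmit its signals, NFKBIA, NFKBIE, TNFAIP3, BIRC3 and TRAF3. They were taken by symbol from a table of 43735 genes, and each of the 10 had a row and passed the filter on low counts, which 14281 genes passed. The rule that selects them is a list of symbols and uses no measured value, but the list was drawn up with earlier results of these data known.

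RNA sequencing was performed on 18 libraries from MM1S and MM1R, established multiple myeloma cell lines of the same origin that are sensitive and resistant to glucocorticoids, respectively. Each line was left untreated, was exposed to 5 µM RSL3 for 3 h, or was pre-treated with 2 µM ferrostatin-1 (Fer-1) for 2 h and then exposed to 5 µM RSL3 for 3 h, with 3 libraries in each of the 6 groups. RSL3 inhibits GPX4, the enzyme that detoxifies lipid peroxides, and thereby induces ferroptosis, an iron-dependent form of cell death, and Fer-1 is a radical-trapping inhibitor of ferroptosis. Replicates 1, 2 and 3 were cells of passages 4, 6 and 7 in MM1R and of passages 16, 22 and 23 in MM1S, so that the 3 conditions of a line can be compared within a passage. No library was from cells given Fer-1 alone, and each line stands for 1 model only, so that a difference between the lines cannot be told apart from any other difference between these cultures.

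NF-kappa-B proteins bind DNA as dimers. In resting cells, inhibitor proteins such as IκBα (encoded by NFKBIA) and IκBε (NFKBIE) hold the dimers of the canonical pathway in the cytoplasm, and IκB kinase marks these inhibitors for degradation upon stimulation. Several inhibitors are themselves target genes of NF-kappa-B, so that their RNA is part of a negative feedback loop. A20, encoded by TNFAIP3, is a ubiquitin-editing enzyme that shuts down signalling to IκB kinase, whereas TRAF3 and cIAP2 (BIRC3) belong to a complex that keeps NIK, the kinase of the non-canonical pathway, at low levels. Loss of TRAF3 or of BIRC2 and BIRC3 is a recurrent finding in myeloma, a cancer of plasma cells in which constitutive NF-kappa-B activity is common.

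The promoters of 7 of the 8 members with an entry in the RefSeq promoter table held a kappa-B type motif, and the matches are shown because kappa-B motifs are the sequences that NF-kappa-B dimers are known to recognise. The 250 bases before each listed start (build GRCh38.p14, which is not the build of the counts) were searched on both strands for GGGNNTTTCC, a spelling chosen with these promoters in view. A match was present in 8 of the 12 windows of these members and in 1.73% of the 35116 promoters of the table. With the broader kappa-B consensus, 8 of the 12 windows and 6.88% of all promoters held a match. RELB and NFKBIE have no entry. Each sequence is given 5′ to 3′ on the strand of the gene, with the matches to GGGNNTTTCC in capitals.
TNFAIP3, chr6:137867182-137867223: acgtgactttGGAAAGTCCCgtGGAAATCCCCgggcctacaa
NFKBIA, chr14:35404811-35404840, minus strand: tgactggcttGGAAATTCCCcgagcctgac
BIRC3, chr11:102317275-102317304: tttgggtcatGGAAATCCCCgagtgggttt
TRAF3, chr14:102777406-102777435: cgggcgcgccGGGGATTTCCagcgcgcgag
NFKB1, chr4:102501300-102501329: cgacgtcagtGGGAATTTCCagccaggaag
NFKB2, chr10:102394490-102394519: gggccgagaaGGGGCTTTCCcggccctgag
NFKB2, chr10:102395674-102395703: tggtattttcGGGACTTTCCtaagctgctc
REL, chr2:60881518-60881547: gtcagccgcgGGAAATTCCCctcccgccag

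For GGGNNTTTCC, TNFAIP3 was the one member with a pair of matches in a single window, beginning 67 and 55 bases before the start. The first base of the match lay 33 bases before the start in TRAF3, 46 in REL, 49 in NFKB1, 78 and 21 before 2 separate starts of NFKB2, 81 in NFKBIA and 199 in BIRC3. With the broader consensus, NFKB2 held pairs in single windows as well, at 107 and 78 bases before a start and at 176 and 21 before another. Neither window of RELA held a match to GGGNNTTTCC, which says only that these letters are not in those windows. A match is a description of the sequence and not a measured binding site.

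Library totals lay between 17635438 and 19368343 counts, and levels are given as CPM, read counts per library size after scaling by TMM factors. NR3C1, the gene of the glucocorticoid receptor, lay between 13.8 and 14.9 CPM in untreated MM1R and between 89.9 and 152 CPM in untreated MM1S. A pair of libraries stood apart. The MM1R library of replicate 2 given Fer-1 and RSL3 had 50.2 CPM of NR3C1, against 16.9 and 15.3 CPM in the other libraries of its group and 89.9 to 152 CPM in untreated MM1S. Whether this library holds RNA of the other line was not tested, and this limits what its values stand for, among them the MM1R levels with Fer-1. The RSL3-treated MM1S library of replicate 1 had 2298 CPM of HMOX1, a stress-induced heme oxygenase, and 4321 CPM of HSPA6, an inducible heat shock protein, whereas replicates 2 and 3 had 310.2 and 434 CPM of HMOX1 and 64.5 and 82.8 CPM of HSPA6. NR3C1 in that replicate 1 library was 392 CPM, beside 102 and 97.6 CPM in replicates 2 and 3. That library also had the lowest total and the lowest TMM factor, 0.864. Plasma cell and myeloma markers summed to between 4385 and 6247 CPM in every library. Of 15 markers of T cells, monocytes, fibroblasts, epithelium and erythroid cells, 11 stayed below 1 CPM in every library and none exceeded 19.5 CPM. In these bulk libraries, fewer cells with an RNA and less of that RNA per cell cannot be told apart.

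To compare genes with each other, CPM was divided by the length of the canonical transcript. In untreated MM1S, the level of NFKB2, whose p100 product is processed to the p52 subunit, was 91.2 CPM per kb (SD 8.48, n = 3), and that of TNFAIP3 was 81.9 CPM per kb (SD 14.7, n = 3), so these neighbours overlapped. RELA, encoding the p65 subunit with a transactivation domain, followed at 51.6 CPM per kb. NFKB1 (28.8 CPM per kb), RELB (26.8) and NFKBIA (24.7) formed a middle group in which the ranges of RELB and NFKBIA overlapped. BIRC3 had 19.9 CPM per kb and also overlapped NFKBIA, followed by NFKBIE at 11.2 and TRAF3 at 8.15. REL, encoding c-Rel, was far below the others at 0.413 CPM per kb in MM1S and 0.131 CPM per kb in MM1R. The order in untreated MM1R was the same apart from RELB and NFKB1, which exchanged places at 25.8 and 24.6 CPM per kb with overlapping ranges.

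**Figure D1:**
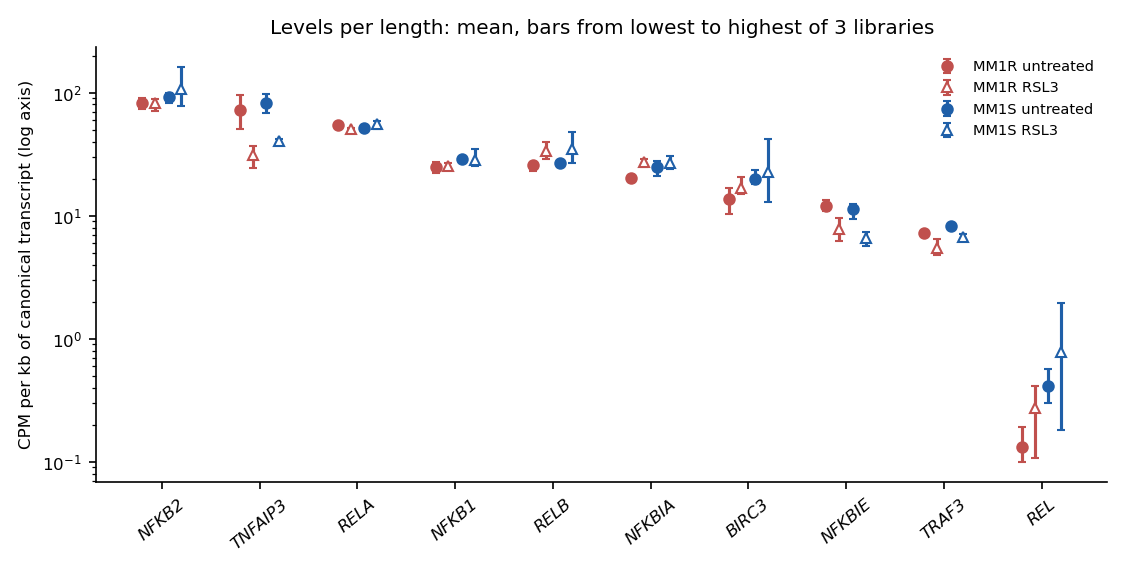
Level per length of each of the 10 genes (y axis, CPM per kb of canonical transcript, log scale) in untreated and RSL3-treated cells of both lines, with symbols at the mean and bars from the lowest to the highest of 3 libraries. NFKB2 and TNFAIP3 lead in untreated cells, TNFAIP3 is lower after RSL3 in both lines, and REL lies below 2 CPM per kb in every group.

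The first comparison asked how the set responds to 3 h of RSL3 in each line. A gene was called a differentially expressed gene (DEG) at an FDR under 0.05 with a log2 fold change over 1 in size, tested with edgeR's quasi-likelihood F test, the FDR being Benjamini-Hochberg adjusted over the 14281 genes. TNFAIP3 was the member called, and it fell in both lines, to 0.429 times its untreated level in MM1R and to 0.488 times in MM1S. The other 9 members were not called in either line. A drop past both thresholds was uncommon, since 0.14% of all genes in MM1R and 0.259% in MM1S were called lower, and 0.063% (9 genes) were called lower in both. In the mean of both lines 0.441% were called lower. The share called in either direction was 1.2% in MM1R and 1.61% in MM1S, beside 1 of 10 members in each. The list was drawn up with earlier results of these data known, so these shares do not show how unusual the call is.

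The fitted changes of the members lay on both sides of 0. In MM1R, 5 of 10 had a fitted change above 0 and 5 below, with a median log2 fold change of 0.013 beside 0.00023 over all genes. In MM1S, 6 lay above and 4 below, with a median of 0.11 beside 0.0022. An unadjusted p under 0.05 was reached by 4 of 10 members in MM1R and 3 of 10 in MM1S, beside 2639 and 2779 of all 14281 genes.

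TNFAIP3, located at chr6:138188351-138204451 (hg19), had 447, 322 and 235 CPM in the 3 untreated MM1R libraries and 147, 171 and 113 CPM after RSL3. The MM1S libraries had 456, 371 and 320.2 CPM untreated and 195, 184 and 181 CPM after RSL3. Every RSL3-treated library lay below every untreated library of its line, although the untreated libraries themselves spread widely. The log2 fold change was -1.22 in MM1R (SE 0.21, FDR 0.0062) and -1.03 in MM1S (SE 0.21, FDR 0.013), and -1.13 (SE 0.15, FDR 0.00016) as the mean of both lines. Within passages, the log2 ratio of RSL3 to untreated lay between -1.60 and -0.82, below 0 in 6 of 6 passages. With passage as a block, a fit that compares libraries within a passage, the call stood in both lines, at -1.20 (FDR 0.00051) and -1.02 (FDR 0.00066). The call was lost in each line without its untreated replicate 1, the library with the most TNFAIP3 of its group, at -0.96 (FDR 0.033) in MM1R and -0.89 (FDR 0.081) in MM1S. In the mean of both lines it was lost without MM1R untreated replicate 1, at -0.997 (FDR 0.00047). It was also lost in MM1S when the libraries of the 2 groups compared were fitted alone, at -1.03 (FDR 0.15).

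NFKBIE, the gene of IκBε, at chr6:44225903-44233525 (hg19), had 31.2, 25.7 and 27.2 CPM in untreated MM1R and 17.7, 22.2 and 14.5 CPM after RSL3. Its MM1S levels were 28.0, 28.9 and 21.98 CPM untreated and 15.8, 17.2 and 13.3 CPM after RSL3. The groups did not overlap in either line. In MM1S NFKBIE fell by 0.77 on the log2 scale (SE 0.19, FDR 0.033), past the FDR threshold but not the fold threshold. The FDR threshold alone was passed by 2 members there, NFKBIE and TNFAIP3, beside 3.67% of all genes. NFKBIE passed it in 14 of the 18 fits that each left out a library, but not without RSL3-treated MM1S replicate 1 (-0.78, FDR 0.094). In MM1R the change of -0.62 (SE 0.19) had an FDR of 0.079, which became 0.0091 with passage as a block. As the mean of both lines it fell by 0.70 (SE 0.13, FDR 0.0025), and the ratio was below 1 in 6 of 6 passages.

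The third inhibitor of signalling whose libraries did not overlap in either line was TRAF3, at chr14:103243786-103377837 (hg19). It had 56.8, 56.4 and 57.3 CPM in untreated MM1R and 37.2, 39.8 and 50.0 CPM after RSL3. The corresponding MM1S libraries had 63.6, 62.0 and 65.4 CPM untreated and 49.4, 50.9 and 55.3 CPM after RSL3. Its log2 fold change was -0.43 in MM1R (SE 0.13, FDR 0.090) and -0.29 in MM1S (SE 0.13, FDR 0.23). TRAF3 passed the FDR threshold in the mean of both lines, where it fell by 0.36 (SE 0.094, FDR 0.017), and with passage as a block in MM1R (FDR 0.013). Without RSL3-treated MM1R replicate 1, its FDR in the mean of both lines was 0.053.

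NFKBIA, the gene of IκBα and a standard readout of canonical NF-kappa-B activity, lies at chr14:35870285-35873955 (hg19). It had 33.2, 29.5 and 31.5 CPM in untreated MM1R and 45.2, 38.6 and 42.7 CPM after RSL3, without overlap. Its level in MM1S was 43.4, 39.2 and 32.7 CPM in untreated cells and 47.3, 40.6 and 37.6 CPM after RSL3, and the groups overlapped. The log2 fold change was 0.43 in MM1R (SE 0.13, FDR 0.093) and 0.12 in MM1S (SE 0.13, FDR 0.67). The MM1R value passed the FDR threshold with passage as a block (0.42, FDR 0.0056), as did the mean of both lines (0.28, FDR 0.0031), which was 0.27 (FDR 0.061) without it. The within-passage ratio was above 1 in 6 of 6 passages, so NFKBIA and NFKBIE, which encode inhibitors of the same family, lay on opposite sides in every passage.

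BIRC3, encoding the ubiquitin ligase cIAP2, showed no common direction. It had 115, 94.9 and 70.2 CPM in untreated MM1R and 104, 103 and 140.5 CPM after RSL3. In MM1S the untreated libraries had 160.2, 128 and 123 CPM and the RSL3-treated libraries 287, 91.2 and 88.0 CPM. Of the RSL3-treated MM1S libraries, replicate 1 lay above and replicates 2 and 3 below every untreated library. The log2 fold change was 0.31 (SE 0.35, FDR 0.71) in MM1R and 0.18 (SE 0.35, FDR 0.83) in MM1S, and the latter was -0.61 without replicate 1 of the RSL3 group.

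**Figure D2:**
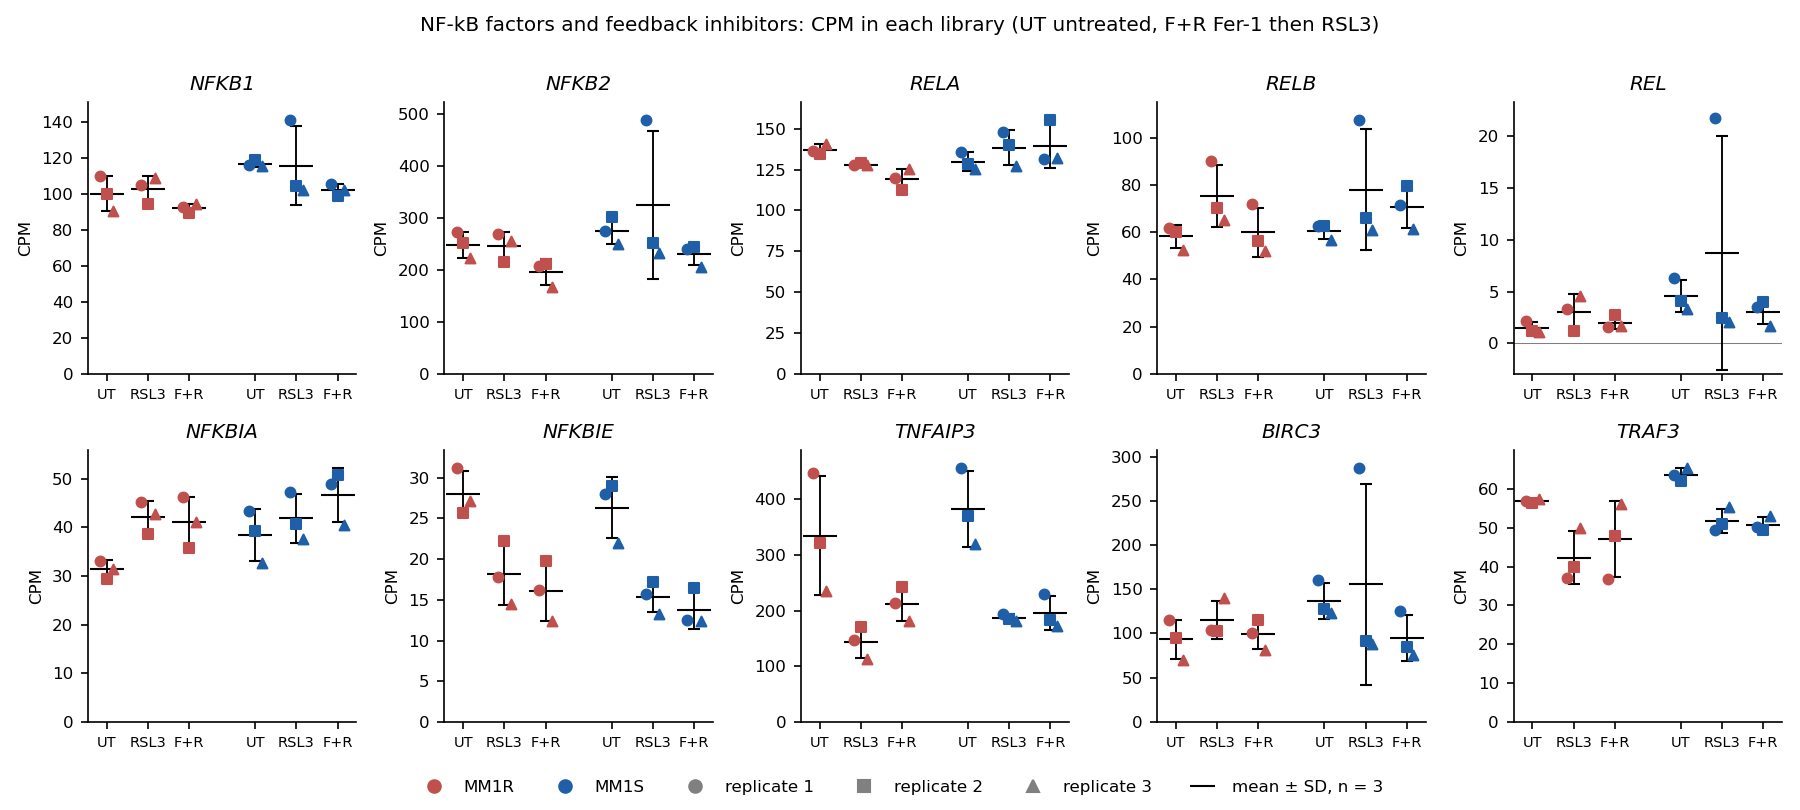
Level of each of the 10 genes (y axis, CPM) in each of the 18 libraries, grouped by line and condition, with symbols by replicate and bars for mean ± SD (n = 3). TNFAIP3, NFKBIE and TRAF3 are lower in every RSL3-treated library than in the untreated libraries of the same line, and in REL, NFKB2 and BIRC3 a single RSL3-treated MM1S library, replicate 1, sets the group apart (the lower SD bar of REL reaches below 0).

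Of the transcription factor genes, none was called. RELA, at 134 to 141 CPM in untreated MM1R and 128 to 129 CPM after RSL3, changed by -0.098 on the log2 scale (SE 0.090, FDR 0.63). In MM1S, RELA had 125 to 136 CPM untreated and 127 to 148 CPM after RSL3, a log2 fold change of 0.092 (SE 0.090, FDR 0.63). NFKB1, whose p105 product is processed to the p50 subunit, had 109.6, 100.1 and 90.1 CPM in untreated MM1R and 105, 94.4 and 109 CPM after RSL3. The MM1S values were 116, 119 and 115 CPM untreated and 141, 104 and 102 CPM after RSL3. The log2 fold changes of NFKB1 were 0.039 (SE 0.12, FDR 0.91) in MM1R and -0.014 (SE 0.12, FDR 0.97) in MM1S. The canonical pair RELA and NFKB1 thus had changes close to or below their standard errors.

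RELB, whose product pairs with p52 in the non-canonical pathway, had 61.9, 60.1 and 52.4 CPM in untreated MM1R and 90.3, 70.1 and 65.3 CPM after RSL3, without overlap. MM1S cells had 62.5, 62.6 and 56.6 CPM untreated and 107, 65.7 and 60.7 CPM after RSL3, with overlap. Its within-passage ratio was above 1 in 6 of 6 passages, with log2 values between 0.071 and 0.78. The log2 fold change was 0.37 (SE 0.19, FDR 0.32) in MM1R and 0.36 (SE 0.19, FDR 0.31) in MM1S. The mean of both lines, 0.37 (SE 0.13, FDR 0.074), passed the FDR threshold with passage as a block (0.35, FDR 0.016). The MM1S value was 0.068 without replicate 1 of the RSL3 group.

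For NFKB2 and REL, the RSL3-treated MM1S library of replicate 1 was again far above the others of its group. NFKB2 had 272, 251 and 222 CPM in untreated MM1R and 268, 215 and 255 CPM after RSL3. In untreated and RSL3-treated MM1S, in this order, it had 275, 301 and 249.8 CPM and 488, 253 and 232 CPM. The log2 fold change of NFKB2 was -0.014 (SE 0.21, FDR 0.99) in MM1R and 0.24 (SE 0.21, FDR 0.58) in MM1S, which became -0.18 without that library.

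REL had 2.13, 1.14 and 1.10 CPM in untreated MM1R (41, 21 and 19 counts) and 3.33, 1.19 and 4.56 CPM after RSL3 (62, 22 and 80 counts). Untreated MM1S had 6.32, 4.13 and 3.31 CPM of REL and RSL3-treated MM1S 21.8, 2.40 and 2.03 CPM. Replicate 1 was thus higher and replicates 2 and 3 lower than every untreated MM1S library. The fitted log2 fold changes of 1.04 in MM1R (SE 0.75, FDR 0.51) and 0.91 in MM1S (SE 0.69, FDR 0.50) did not pass the test, and the MM1S value was -1.04 without replicate 1.

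The library with 488 CPM of NFKB2, 21.8 CPM of REL, 287 CPM of BIRC3 and 107 CPM of RELB was the one with the most HMOX1, at 2298 CPM. In MM1R, the RSL3-treated library with the most HMOX1 was replicate 3, at 1404 CPM beside 237 and 243 CPM. It also had the most REL (4.56 CPM) and BIRC3 (140.5 CPM) of its group. However, its RELB was the lowest of the group, at 65.3 CPM beside 90.3 and 70.1 CPM. Its NFKB2, at 255 CPM, lay between the 268 and 215 CPM of the others. TNFAIP3 was 195 CPM in the MM1S library with 2298 CPM of HMOX1 and 113 CPM in the MM1R library with 1404 CPM, each below all untreated libraries. The part of the extent of the stress response in these member values was not tested.

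**Figure D3:**
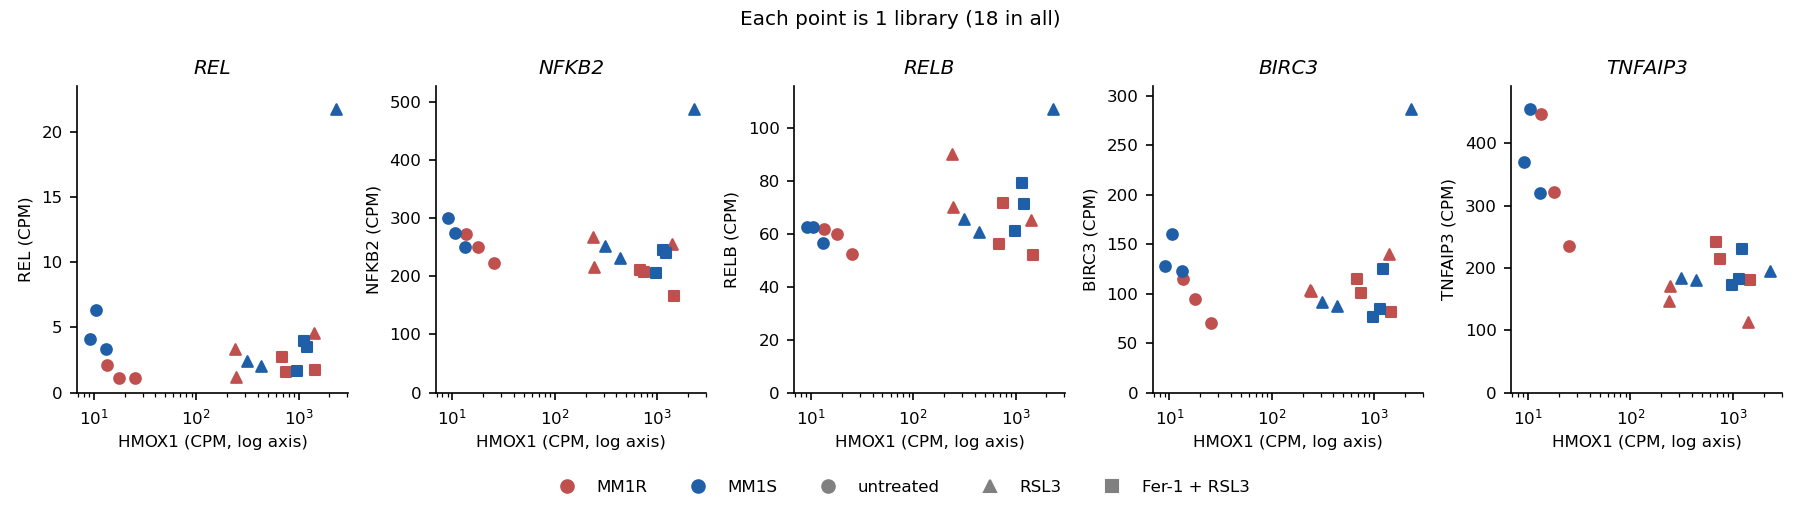
CPM of REL, NFKB2, RELB, BIRC3 and TNFAIP3 (y axes) against CPM of HMOX1 (x axis, log scale) in 18 libraries, coloured by line with symbols by condition. The point at 2298 CPM of HMOX1 stands above the others in the first 4 genes, and for TNFAIP3 the untreated libraries (235 to 456 CPM) lie to the left, and 1 library of another condition, at 242 CPM, lies above the lowest of them.

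Counting libraries that do not overlap, RSL3 left 2 members higher (RELB and NFKBIA) and 4 lower (RELA, NFKBIE, TNFAIP3 and TRAF3) in MM1R, where 13.5% of all genes were higher and 12.3% lower by the same rule. In MM1S no member was higher and 3 (NFKBIE, TNFAIP3 and TRAF3) were lower, beside 12.6% and 12.3% of all genes. The same 3 genes were lower without overlap in both lines, as were 5.52% of all genes, whereas 0 members and 6.13% of all genes were higher in both. Within passages, TNFAIP3, NFKBIE and TRAF3 were lower after RSL3 in all 6 passages, beside 14.8% of all genes, and RELB and NFKBIA were higher in all 6, beside 13.8%. In the mean of both lines, 3 members passed the FDR threshold alone, all of them lower, beside 15.5% of all genes in either direction and 6.81% lower, and 1 of 10 members was called, beside 3.24% of all genes.

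**Figure D4:**
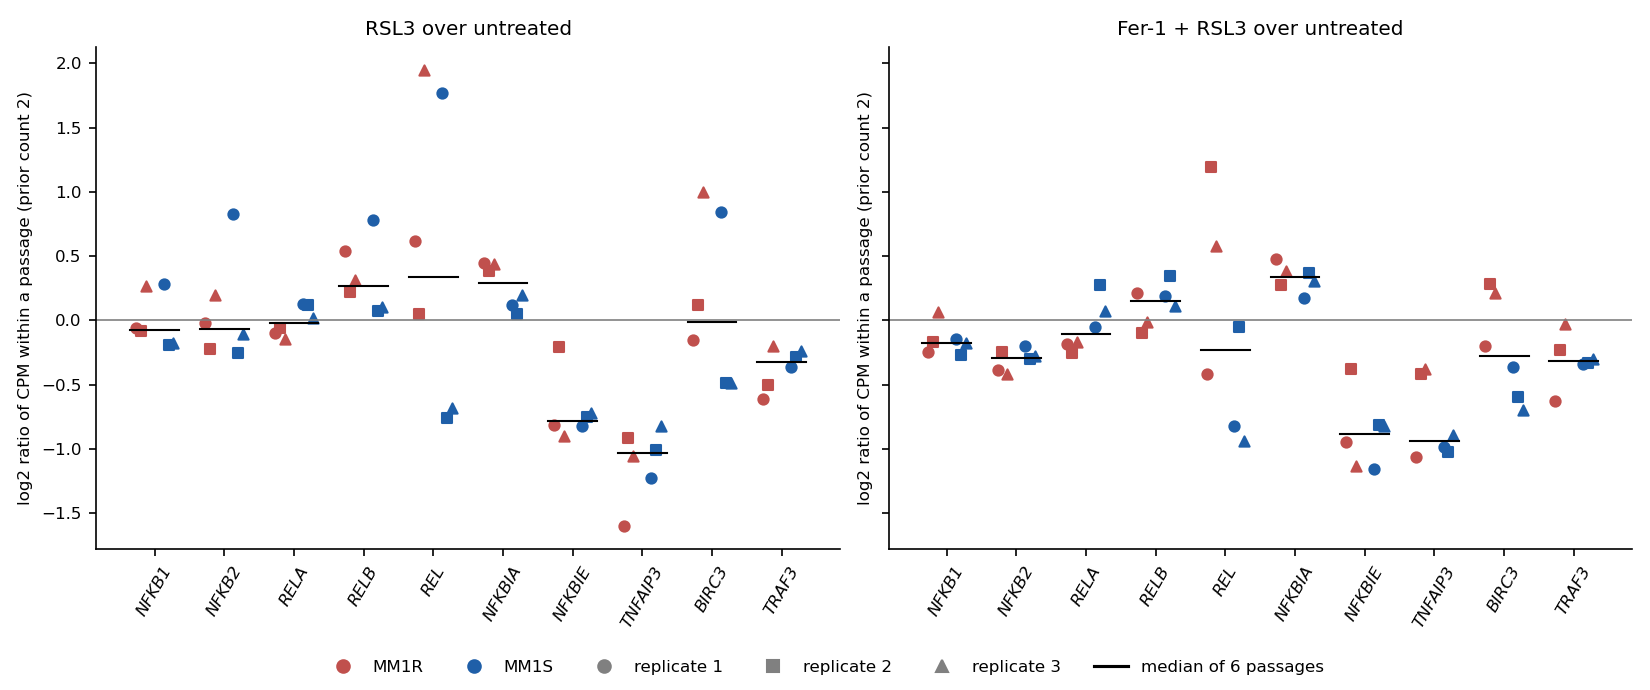
Within-passage log2 ratio of CPM (y axis, prior count of 2) for RSL3 over untreated and for Fer-1 plus RSL3 over untreated, for each of the 10 genes, with 1 point per passage, colours by line and a bar at the median of 6 passages. TNFAIP3, NFKBIE and TRAF3 lie below 0 and NFKBIA above 0 in all 6 passages of both panels, while REL spreads from -0.76 to 1.95 in the first.

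Whether the lines responded differently to RSL3 was tested as the difference of the log2 fold changes, MM1R minus MM1S. No member passed, nor did any of the 14281 genes (222 genes and 0 members had an unadjusted p under 0.05, and 0% were called). The difference was -0.19 for TNFAIP3 (SE 0.29, unadjusted p = 0.53 by edgeR), 0.30 for NFKBIA (SE 0.19, unadjusted p = 0.13 by edgeR) and -0.19 for RELA (SE 0.13, unadjusted p = 0.16 by edgeR). A p that misses the threshold does not show that the lines responded alike.

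The next comparison asked whether pre-treatment with Fer-1 altered the level that RSL3 set. No member was called in MM1R or MM1S, and neither was any gene (0%), while 881 and 821 genes had an unadjusted p under 0.05. The 1 member with such a p in MM1R was TNFAIP3. It had 214, 242 and 181 CPM with Fer-1 and RSL3, each above the 147, 171 and 113 CPM with RSL3 alone, at a log2 fold change of 0.56 (SE 0.21, FDR 0.71, unadjusted p = 0.015 by edgeR), and it was higher in 3 of 3 passages. With passage as a block the change was 0.57 (FDR 0.10). Without both libraries that stood apart, among them the Fer-1 library of replicate 2 with 242 CPM of TNFAIP3, it was 0.45 (FDR 0.89). In MM1S TNFAIP3 had 230.1, 183 and 173 CPM with Fer-1 and RSL3, which overlapped the 195, 184 and 181 CPM with RSL3 alone (0.065, SE 0.21, FDR 0.99).

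HMOX1 was at 685 to 1463 CPM in MM1R and 975 to 1220 CPM in MM1S with Fer-1 and RSL3, so the stress gene stayed high in these libraries. With RSL3 alone it was at 237 to 1404 CPM in MM1R and 310 to 2298 CPM in MM1S. Within passages, it was lower with Fer-1 in MM1S replicate 1 (1220 beside 2298 CPM) and higher in every other passage. The mean log2 fold change over both lines was 0.38 (SE 0.47, FDR 0.80).

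The other members were not called either. By the count of libraries without overlap in MM1R, TNFAIP3 was higher, beside 6.96% of all genes, and NFKB1, NFKB2 and RELA were lower, beside 6.44%. No member met that rule in MM1S, where 4.62% and 4.17% of all genes did. NFKB2 had 208, 211 and 167 CPM in MM1R and 239, 245 and 206 CPM in MM1S with Fer-1 and RSL3, and it was lower than with RSL3 alone in 6 of 6 passages, as was NFKBIE, beside 6.56% of all genes. No member was higher in all 6, beside 8.05%. The mean log2 fold change of NFKB2 over both lines was -0.41 (SE 0.15, FDR 0.26), and -0.24 without both libraries that stood apart. For REL and BIRC3 in MM1S the changes of -1.50 (SE 0.70, FDR 0.86) and -0.71 (SE 0.35, FDR 0.88) rested on replicate 1 of the RSL3 group and were 0.47 and 0.085 without it. In the mean of both lines 8 genes were called, 0.056% of all genes, and 0 members.

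**Figure D5:**
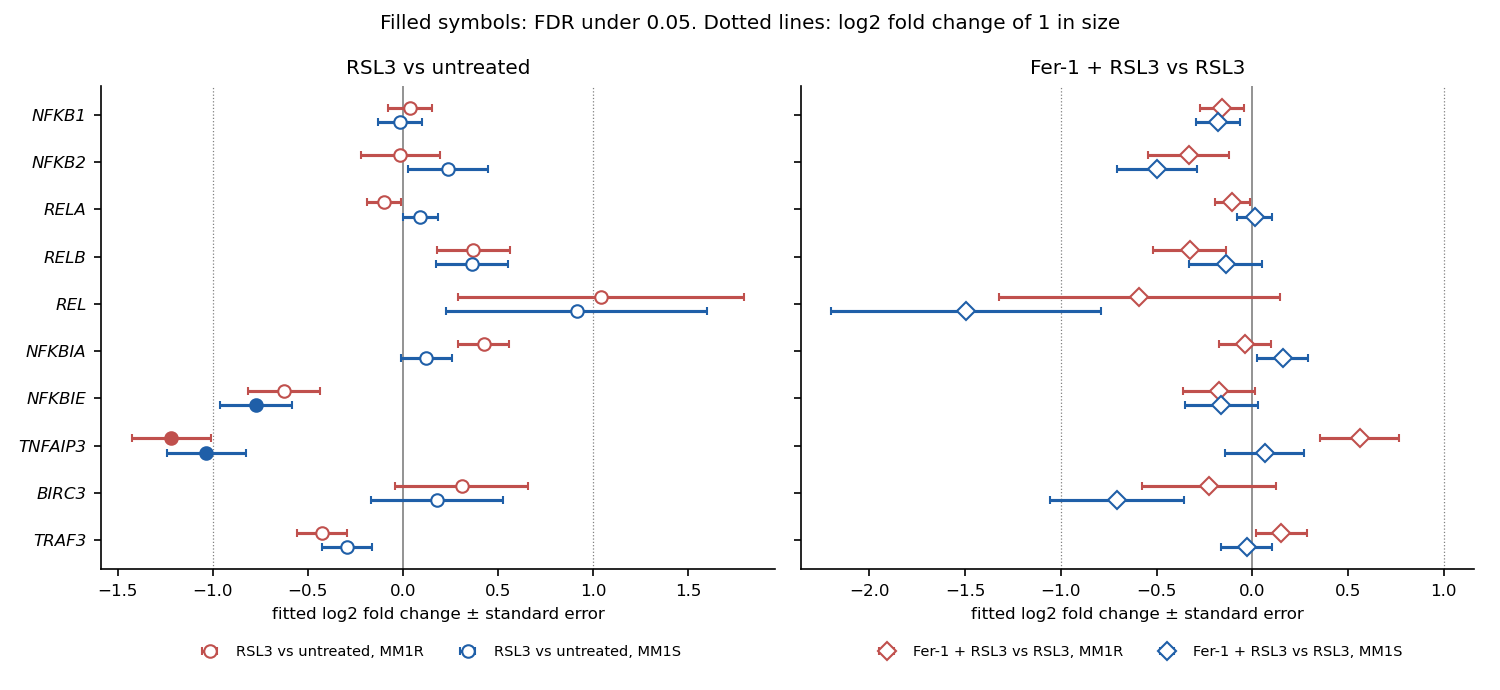
Fitted log2 fold change ± standard error (x axis) of each of the 10 genes for RSL3 against untreated cells (left) and for Fer-1 plus RSL3 against RSL3 alone (right), by line; filled symbols mark an FDR under 0.05 and dotted lines a log2 fold change of 1 in size. On the left, TNFAIP3 in both lines and NFKBIE in MM1S are filled, and on the right no symbol is.

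Against untreated cells, the combination of Fer-1 and RSL3 gave changes that can be set beside those of RSL3 alone, with the same untreated libraries in both. In the mean of both lines 4 members passed the FDR threshold, beside 19% of all genes, and 0 were called, beside 2.96%. NFKBIE fell by 0.87 on the log2 scale (SE 0.13, FDR 0.00036), where RSL3 alone had given -0.70. TNFAIP3 fell by 0.81 (SE 0.15, FDR 0.0011), where RSL3 alone had given -1.13. TRAF3 fell by 0.30 (SE 0.094, FDR 0.034), which passed in 8 of the 18 fits that each left out a library, and NFKBIA rose by 0.33 (SE 0.095, FDR 0.021), which passed in 14 of 18.

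The levels with Fer-1 and RSL3 show how far these members stood from the untreated level. NFKBIE had 16.2, 19.8 and 12.3 CPM in MM1R and 12.5, 16.5 and 12.4 CPM in MM1S, below every untreated library of the same line. TNFAIP3 had 214, 242 and 181 CPM in MM1R, where replicate 2 lay above the lowest untreated library, at 235 CPM. That replicate 2 library is the one with 50.2 CPM of NR3C1, and the untreated library of its passage had 322 CPM of TNFAIP3. The MM1S levels of TNFAIP3 were 230.1, 183 and 173 CPM, below every untreated library. The within-passage log2 ratio of TNFAIP3 to untreated lay between -1.06 and -0.38 in MM1R and between -1.02 and -0.89 in MM1S. NFKBIA had 46.3, 35.7 and 41.2 CPM in MM1R, above every untreated library, and 49.0, 50.7 and 40.4 CPM in MM1S, with overlap. TRAF3 had 36.8, 48.0 and 56.3 CPM in MM1R, the last just below the lowest untreated library at 56.4 CPM, and 50.2, 49.4 and 53.1 CPM in MM1S. Without overlap with untreated cells, 1 member was higher in MM1R (NFKBIA) and 4 were lower (NFKB2, RELA, NFKBIE and TRAF3). By this rule 16.5% of all genes were higher in MM1R and 14.1% lower. In MM1S 0 members were higher and 5 lower (NFKB1, NFKB2, NFKBIE, TNFAIP3 and TRAF3), beside 14.7% and 13.6% of all genes. Within passages, NFKBIA was higher in all 6, beside 17.1% of all genes, and NFKB2, NFKBIE, TNFAIP3 and TRAF3 were lower in all 6, beside 16% of all genes.

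The remaining members did not pass the test in this comparison. NFKB2 had a log2 fold change of -0.30 (SE 0.15, FDR 0.17), and its FDR was 0.015 without RSL3-treated MM1S replicate 1 and 0.021 when the compared groups were fitted alone. RELB had 71.7, 56.1 and 52.1 CPM in MM1R and 71.5, 79.5 and 61.3 CPM in MM1S. BIRC3 had 100.3, 115 and 81.5 CPM in MM1R and 125, 84.5 and 76.0 CPM in MM1S. REL lay between 1.57 and 2.76 CPM in MM1R and between 1.68 and 3.99 CPM in MM1S, NFKB1 between 89.2 and 94.2 CPM in MM1R and between 98.8 and 105 CPM in MM1S, and RELA between 112 and 155 CPM over both lines. The NFKB1 libraries of MM1S all lay below the untreated ones, at 115 to 119 CPM.

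The untreated lines were compared to see whether the resistant line starts from another level. No member was called, although 4.64% of all genes were. By edgeR the log2 difference, MM1R minus MM1S, was -1.64 for REL (SE 0.75, FDR 0.18), -0.55 for BIRC3 (SE 0.35, FDR 0.36), -0.29 for NFKBIA (SE 0.13, FDR 0.19), -0.22 for NFKB1 (SE 0.12, FDR 0.24) and -0.16 for TRAF3 (SE 0.13, FDR 0.49). The libraries of REL, BIRC3, NFKB1 and TRAF3 did not overlap and lay lower in MM1R, beside 16.7% of all genes, and no member lay higher, beside 15.6%. REL met both thresholds when the untreated groups were fitted alone (-1.61, FDR 0.018), and also without the RSL3-treated MM1S library of replicate 1 (-1.63, FDR 0.022), which enters the shared estimate of the spread. TNFAIP3 and RELB overlapped between the lines.

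The wider pathway was read from lists of 94 further genes, of which 68 were tested. These lists held kinases upstream of NF-kappa-B, adaptors and ubiquitin enzymes, other inhibitors, receptors and ligands, and target genes. After RSL3 no listed gene was called in MM1R, beside 1.2% of all genes. In MM1S 2 of 68 were called, both higher, beside 1.61%, and in the mean of both lines 3, all higher, beside 3.24%. With the FDR threshold alone, 1 of 68 (1.47%) passed in MM1R beside 3.36% of all genes, 5 (7.35%) in MM1S beside 3.67%, and 19 (27.9%) in the mean of both lines beside 15.5%, of which 12 were higher and 7 lower. The median log2 fold change of the 68 genes was 0.053 in MM1R and 0.041 in MM1S, beside 0.00023 and 0.0022 over all genes.

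Among upstream kinases, 1 of 13 was called in MM1S, beside 1.61% of all genes. MAP3K8, a kinase released from p105 upon stimulation, had 5.04, 4.74 and 5.85 CPM in untreated MM1R and 16.3, 9.42 and 31.0 CPM after RSL3. Untreated MM1S libraries had 6.53, 5.22 and 4.62 CPM and RSL3-treated ones 65.9, 9.75 and 8.96 CPM, so that every treated library was higher in both lines. The log2 fold change was 2.36 in MM1S (SE 0.60, FDR 0.039) and 1.86 in MM1R (SE 0.59, FDR 0.096). The MM1S call held in 9 of the 18 fits with 1 library left out. Without RSL3-treated replicate 1 the MM1S value was 0.78 (FDR 0.36). In the mean of both lines MAP3K8 was called at 2.11 (SE 0.42, FDR 0.0033), in 18 of the 18 fits that each left out a library, and at 1.32 (FDR 0.0014) without RSL3-treated MM1S replicate 1. With that library left out, the MM1R value passed both thresholds (1.86, FDR 0.0018), as it did with passage as a block (1.75, FDR 0.023).

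PELI1, a ubiquitin ligase of Toll-like receptor signalling and 1 of 11 further inhibitors and regulators tested, had 60.7, 73.8 and 71.0 CPM in untreated MM1S and 946, 112 and 88.5 CPM after RSL3. Its log2 fold change in MM1S was 2.48 (SE 0.67, FDR 0.049), called in 3 of the 18 fits with 1 library left out. It was 0.56 (FDR 0.59) without RSL3-treated replicate 1. With passage as a block it was 1.83 (FDR 0.082). In MM1R it had 36.5, 32.6 and 21.0 CPM untreated and 173, 43.4 and 128 CPM after RSL3, a log2 fold change of 1.94 (SE 0.66, FDR 0.12) that passed without RSL3-treated MM1S replicate 1 (1.94, FDR 0.0020). PELI1 was also called in the mean of both lines, at 2.21 (SE 0.47, FDR 0.0049), in 18 of the 18 fits that each left out a library, and at 1.25 (FDR 0.0029) without that library. NFKBIZ, a nuclear IκB protein that is itself an NF-kappa-B target, was called in the mean of both lines at 1.23 (SE 0.28, FDR 0.0075), and at 0.88 (FDR 0.013) without RSL3-treated MM1S replicate 1 it no longer passed the fold threshold. With passage as a block NFKBIZ passed both thresholds in MM1R (1.21, FDR 0.018) and in MM1S (1.06, FDR 0.029). Without the block the MM1S value was 1.22 (FDR 0.091), and 0.51 (FDR 0.57) without RSL3-treated replicate 1. MYD88, an adaptor of Toll-like and interleukin-1 receptors, was named after its value was seen as the 1 listed gene past the FDR threshold in MM1R. It fell by 0.42 in MM1R (SE 0.11, FDR 0.047) and by 0.42 in MM1S (SE 0.11, FDR 0.043), and each of these passed in 3 of the 18 fits that left out a library.

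The lists of receptors and ligands (11 of 21 tested) and of target genes (15 of 28 tested) held no called gene after RSL3 in either line. Against untreated cells, Fer-1 with RSL3 gave 1 called gene of the 68 in the mean of both lines, beside 2.96% of all genes. It was CXCL10, a chemokine among the targets, at -1.38 (SE 0.47, FDR 0.049). CXCL10 had 13.6, 15.4 and 14.5 CPM in untreated MM1R and 8.34, 4.73 and 5.85 CPM with Fer-1 and RSL3. The MM1S groups overlapped, with 13.3, 2.98 and 4.92 CPM untreated and 4.20, 1.42 and 1.52 CPM with Fer-1 and RSL3. The call held in 5 of the 18 fits that each left out a library, and without untreated MM1S replicate 1 it was -0.97 (FDR 0.16). With the FDR threshold alone, 19 of the 68 genes (27.9%) passed in this comparison beside 19% of all genes. Between untreated lines, 1 of the 68 genes was called, beside 4.64% of all genes. ICAM1, an adhesion molecule, was called higher in MM1R at 2.68 (SE 0.66, FDR 0.016), with 71.3, 57.8 and 54.3 CPM in MM1R and 20.3, 4.13 and 4.32 CPM in MM1S. That call was lost without untreated MM1S replicate 2 (2.33, FDR 0.081) or replicate 3 (2.34, FDR 0.083).

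The genes whose levels followed TNFAIP3 most closely over the 18 libraries, after the mean of each line was subtracted, were DDX17 (Pearson r = 0.963), EPB41L5 (0.936) and SPRED1 (0.930). These values describe libraries that share conditions and passages, and no test was made on them. Since TNFAIP3 fell after RSL3 in these libraries, genes picked for likeness to it would tend to fall as well. Their changes after RSL3 are therefore a description of the picked genes and no separate support. DDX17, an RNA helicase, fell after RSL3 by 0.68 on the log2 scale in MM1R (FDR 0.010) and by 0.66 in MM1S (FDR 0.013). SPRED1, an inhibitor of Ras signalling, fell in MM1S by 0.95 (FDR 0.040, and 0.18 without RSL3-treated replicate 1) while its change in MM1R was -0.88 (FDR 0.058). EPB41L5 had -0.52 (FDR 0.11) and -0.57 (FDR 0.073) in MM1R and MM1S.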

How the data were processed

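RNA was sequenced in 18 libraries of MM1R and MM1S cells, 3 per group, named by line, treatment and replicate as in the labels. The authors prepared paired-end reads on a BGISEQ-500, checked them with FastQC 0.11.5 and aligned them to hg19 with STAR 2.7.3a, and they deposited raw counts of 43735 genes. The counting tool, the annotation and the use of strand are not given in the sources used here, so reads of overlapping or antisense genes may be shared. The authors also deposited normalized signal values of 29553 genes, which are counts divided by a size factor of each library. The submitters' processing notes list DESeq2.

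Raw counts were tested with edgeR 4.0.16 (R 4.3.3) by quasi-likelihood F tests on 6 group means with TMM factors (0.864 to 1.06), after filterByExpr with a minimum count of 10 had kept 14281 genes. Of the genes in the table, 15877 had 0 counts in every library. Totals were 17635438 to 19368343 counts (median 18564719). A DEG had an FDR under 0.05, Benjamini-Hochberg adjusted over all 14281 genes, together with a log2 fold change beyond 1 or -1. Standard errors are the log2 fold change divided by the root of F. Within-passage ratios used log2 CPM with a prior count of 2. Lengths and hg19 positions came from an annotation of that build.

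Replicate numbers mark passages in the labels and so pair the libraries of a line. Deviations of same-passage libraries from their group means correlated with a median r of 0.250 in MM1R (0.0338 to 0.516, 9 pairs) and 0.416 in MM1S (0.216 to 0.681, 9 pairs). The p-values of the main fit weigh a change against the spread between passages within groups, estimated over all 18 libraries. With passage as a block, offsets between passages are taken out first. The libraries of each group differed beyond counting noise (chi-square divided by degrees of freedom, 7.66 or more), and each was kept as a replicate.

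Alternatives were DESeq2 1.42.0, RLE and upper-quartile factors, other filters, passage as a block, the compared groups alone, limma 3.58.1 on log2 of the deposited signal values plus 1, and each library left out in turn. Leaving out both libraries that stood apart was chosen after seeing the data. All 10 members were named, as were called genes of the pathway lists (at most 5 per list and comparison), the 3 genes most like a called member, and NR3C1, HMOX1 and HSPA6 as checks. Members and lists were chosen with earlier results of these data known. On data simulated for MM1R, 171 of 200 genes changed 4-fold were recovered with 4 false calls among 14056 genes. In these simulated data 0 genes were called in MM1S, where none had been changed. The simulated libraries held no passage effect, and the recovery of changes as small as those of the members was not tested.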

Additional observations from a re-analysis of the deposited data

Results flagged for a closer look

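The within-passage ratios of RELA after RSL3 lay on opposite sides of 0 in the 2 lines. This pattern was found by looking through every member in 3 ratios. The share of all genes with such a pattern was not counted, so how often it arises by chance was not tested. By edgeR, the log2 fold change was -0.098 in MM1R (SE 0.090, FDR 0.63) and 0.092 in MM1S (SE 0.090, FDR 0.63). Neither change passed. The log2 ratio of RSL3 to untreated cells averaged -0.0977 over the 3 MM1R passages, each below 0, and 0.0900 over the 3 MM1S passages, each above 0. The difference between the lines, tested with edgeR in 1 fit over all genes, was -0.19 (SE 0.13, unadjusted p = 0.16, FDR 1.00), so it did not pass. It stayed between -0.25 and -0.14 when each library was left out in turn. No other member had opposite directions in every passage of the lines for RSL3 over untreated, Fer-1 plus RSL3 over RSL3, or Fer-1 plus RSL3 over untreated. Groups of 3 libraries were too small for a check of single libraries against their group.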

How the results depend on the processing

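Counts of called members were the same as in the report in 237 of 251 pairs of a comparison and an alternative. With the FDR threshold alone they were 2 in MM1S and 3 in the mean of both lines for RSL3 against untreated cells, and 4 for Fer-1 plus RSL3 against untreated cells in the mean of both lines. Without a filter on low counts they were 2 for RSL3 in MM1R, 1 for Fer-1 plus RSL3 against RSL3 in MM1S and in the mean of both lines, and 1 between untreated lines. REL made up each of these additions, and the cause was not tested. Fits of the compared groups alone gave 0 for RSL3 in MM1S and 1 between untreated lines. When each library was left out in turn, the counts ranged from 0 to 1 for RSL3 in MM1R, in MM1S and in the mean of both lines, and from 0 to 1 between untreated lines. Leaving out both libraries that stood apart gave 1 between untreated lines and kept 1 for RSL3 in each line and in their mean.

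Reversed signs were found for members whose change was small or rested on RSL3-treated MM1S replicate 1. For RSL3 in MM1S, BIRC3 was -0.017 with the replicate block and -0.046 with limma on the deposited values. Without 1 library at a time, RSL3 values in MM1R ranged from -0.088 to 0.072 for NFKB2 and from -0.030 to 0.11 for NFKB1. In MM1S they ranged from -0.18 to 0.068 for NFKB1, -0.18 to 0.43 for NFKB2, -1.04 to 1.38 for REL and -0.61 to 0.46 for BIRC3. Fer-1 plus RSL3 against RSL3 in MM1S ranged from -1.97 to 0.47 for REL, -0.99 to 0.085 for BIRC3 and -0.069 to 0.14 for TNFAIP3, and the line difference of TNFAIP3 from -0.38 to 0.077. Without both libraries that stood apart, RSL3 values in MM1S were -0.18 for NFKB2, -1.04 for REL and -0.61 for BIRC3, and Fer-1 plus RSL3 against RSL3 gave 0.47 for REL and 0.085 for BIRC3.

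TNFAIP3 in the mean of both lines was -0.997 (FDR 0.00047) without MM1R untreated replicate 1, just outside the fold threshold. Of the other pathway genes, the 2 calls in MM1S after RSL3 were 0 without RSL3-treated replicate 1, and those in MM1R went from 0 to 3. With passage as a block, calls over all genes went from 171 to 410 for RSL3 in MM1R, from 230 to 387 in MM1S and, for Fer-1 plus RSL3 against RSL3, from 0 to 12, from 0 to 5 and from 8 to 53 in MM1R, MM1S and their mean. No call of a member was gained or lost, but the calls among the other pathway genes went from 0 to 2 in MM1R after RSL3 and, for Fer-1 plus RSL3 against RSL3, from 0 to 2 in MM1R, 1 in MM1S and 2 in the mean of both lines. No paired analysis was possible between the untreated lines because no passage holds both. REL had 19 to 331 counts per library, and its standard errors for RSL3 were 0.75 in MM1R and 0.69 in MM1S. The part of depth in them was not tested.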
